A study of Capra hircus with 198 samples.

Results

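Intergenic long noncoding RNAs (lncRNAs) of the goat were examined across the body, namely the 2709 gene records that the deposited lncRNA annotation classes as intergenic and that are rows of the deposited gene count table. They are 2709 of the 14511 lncRNA records in that annotation and 2709 of the 39734 features in the table. Total RNA was sequenced in 33 tissues, each taken from the same 6 adult females of the Murciano-Granadina dairy breed, with 1 library per goat and tissue. The Lactation group holds goats 2, 3 and 6, and the Dry group holds goats 54, 64 and 73. A tissue therefore has 6 libraries and a state has 3 of them. The labels give no exact age, no treatment and no genotype, and whatever else set the lactating animals apart from the dry ones cannot be told apart from state.

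A lncRNA is a transcript too long to be a small RNA that shows no long open reading frame. The intergenic kind lies between genes rather than inside, across or opposite them, and it has its own promoter or arises from regulatory DNA such as an enhancer. A few are abundant in nearly all mammalian cells and act as scaffolds in the nucleus, many are made at low levels in few cell types, and for most no function is known.

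Total counts per library ran from 1.31 to 8.97 M with a median of 4.63 M, so 3 counts stood at 2.29 CPM (the count divided by the library total in M) in the shallowest library and at 0.335 CPM in the deepest. CPM values below use each library's total and are means ± SD over goats. By the intergenic lncRNAs alone, 175 libraries were closest to other goats' libraries of their own tissue, and by protein-coding genes 173 were. By both readouts 14 libraries in 11 tissues were closest to another tissue. Among them were all 3 libraries labelled lactating pineal gland, in which TPH1, an enzyme of serotonin and melatonin synthesis chosen here after its values were seen, stood at 0, 0 and 0.419 CPM against 57.1 to 125 CPM in the dry ones. By the intergenic lncRNAs, the 3 lactating neurohypophysis libraries were closest to the adenohypophysis and the 3 dry adenohypophysis libraries to the neurohypophysis. By protein-coding genes it was the 3 lactating libraries and that of goat 64 of the adenohypophysis that were closest to the neurohypophysis, and the neurohypophysis of goats 54 and 64 that was closest to the adenohypophysis. GH1, the growth hormone gene of the anterior lobe, lay between 411 and 1681 CPM in the neurohypophysis libraries and between 156 and 2004 CPM in those of the adenohypophysis.

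Most of the intergenic lncRNAs were short transcript models of few exons. The span from start to end had a median of 5347 bases, and the summed exons had a median of 1155 bases within a range of 200 to 54338. A single exon block was annotated for 325 members (12%), and 2272 (83.9%) had 1 transcript. By position 2240 members lay on a named chromosome and 469 on 411 other sequences, called unplaced because host genes did not tie them to a chromosome. The nearest protein-coding gene lay a median of 55919 bases from a placed member, with 326 members (14.6%) within 10000 bases and 823 (36.7%) beyond 100000. The class name comes from the deposited annotation, and 152 placed members nevertheless overlapped a record of the RefSeq gene table.

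Expression was widespread at the level of the class. Some tissue mean reached 1 CPM for 2480 members (91.5%), 10 CPM for 1804, 100 CPM for 508 and 1000 CPM for 49. Of the members, 1424 reached 1 CPM in all 33 tissues, 184 did so in exactly 1 tissue, and 4 had no count in any library. Among the antisense lncRNAs 97% reached 1 CPM in some tissue, among the protein-coding genes 84.8%, among the overlapping lncRNAs 83% and among the lncRNAs in introns 64.2%.

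Counts of intergenic lncRNAs took 24.6% ± 8.31 of a library on average over all libraries, from 11.8% to 50.9%. The left ventricle of the heart held the highest tissue share at 46.3% ± 2.71 (lowest 43.2, median 46.4, highest 50.9), followed by the masseter, a chewing muscle, at 45.5% ± 4.95 and the diaphragm at 34.2% ± 2.68. The mandibular lymph node had the lowest at 14.6% ± 2.85 (lowest 11.8, median 13.6, highest 18.3), with the lung at 15.4% ± 0.567 and the spleen at 15.4% ± 2.46 beside it. No library of the heart overlapped any library of these 3 low tissues. Over each goat's tissues the share was 25.1% ± 1.44 in the lactating goats and 24.1% ± 0.323 in the dry goats (exact permutation test, two-sided p = 0.4, with 0.1 the smallest p that 3 against 3 can give).

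**Figure D1:**
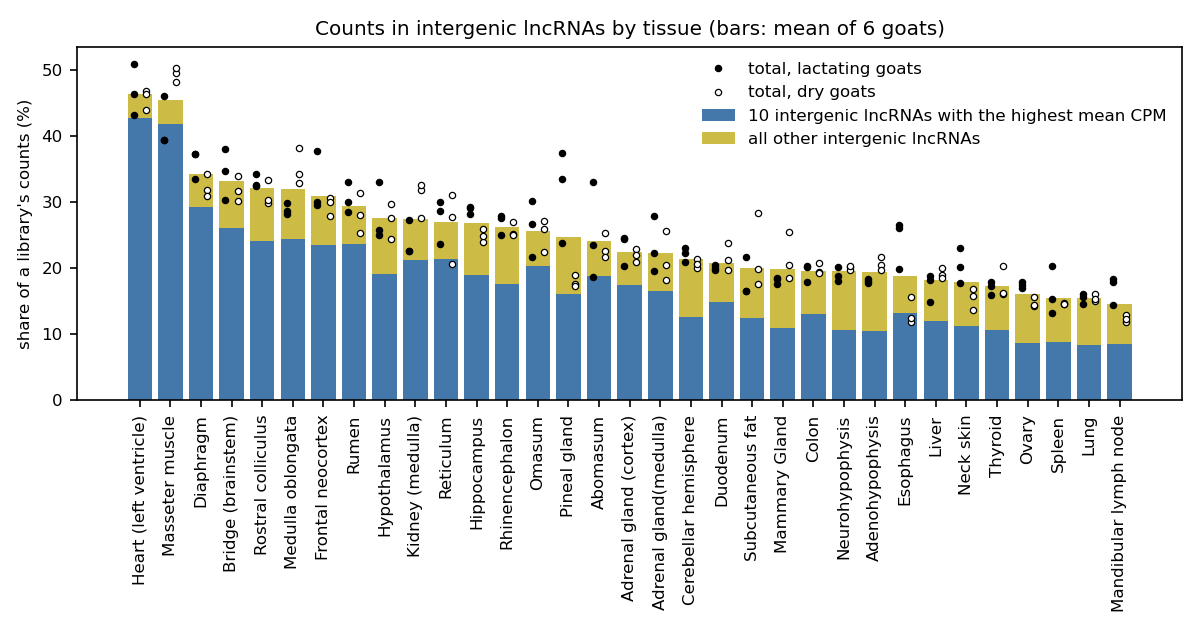
Share of each library's counts in intergenic lncRNAs (y axis, percent) in 33 tissues (x axis): bars are means of 6 goats split into the 10 members with the highest mean CPM and all others, and points are single libraries of lactating (black) and dry (white) goats. The heart and the masseter exceed 45% on average while the lymph node lies at 14.6%, and the other members make up 3.51% in the heart.

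The order of the tissues came from 10 members. These 10 held 17.8% ± 8.96 of a library on average, which is 74.4% of all counts in intergenic lncRNAs, and all other members together held 6.77% ± 1.67. As a share of the whole library, the remaining members were lowest of the 33 tissues in the heart (3.51% ± 0.418) and the masseter (3.72% ± 0.265). They were highest in the neurohypophysis (8.93% ± 0.701), mammary gland (8.88% ± 1.05) and adenohypophysis (8.86% ± 1.84). The total still held the 10, which pulls this share down where they took most (42.8% in the heart, 41.8% in the masseter). The order within the counts left after the 10 is not given here.

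LINC07885 (chr3:81703823-81705312, plus strand) had the highest mean of the class, 58387 CPM over tissues. In the heart it lay at 143396 CPM in the lowest library, 195746 in the median and 212141 in the highest, and in the ovary at 5088, 13159 and 16316. The heart and the masseter (185559 ± 41170 CPM) did not differ beyond their spread, and no heart library overlapped an ovary library. LINC07886, the next record downstream and on the other strand, was highest in the rostral colliculus of the midbrain at 12784 ± 2608 CPM and lowest in the spleen at 847 ± 139 CPM.

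A pair on chromosome 8 followed the same tissues. LINC22482 (chr8:92663445-92667238) peaked in the masseter at 63628 ± 6697 CPM (lowest 54951, median 62395, highest 72063) and was lowest in the spleen at 5382 ± 596 CPM (lowest 4559, highest 6022). LINC22484, on the same strand, stood at 57171 ± 3923 CPM in the heart and 4331 ± 1088 CPM in the ovary. The same pattern was seen for LINC00809 (chr1:54131069-54188268), with 55941 ± 5349 CPM in the heart and 3679 ± 505 CPM in the spleen, and for LINC00431 (chr1:23871472-23872426), with 35303 ± 3753 CPM in the heart and 2951 ± 733 CPM in the ovary. Each of these features had non-overlapping libraries between its highest and its lowest tissue.

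Across the 33 tissue means the levels of 6 of the 10, LINC07885, LINC22482, LINC22484, LINC00809, LINC00431 and LINC07886, had rank correlations of 0.89 to 0.99 with the share of counts in mitochondrially encoded and antisense features of the mitochondrial sequence, which ran from 0.570% in the spleen to 6.77% in the heart. Over the 2480 members at 1 CPM the median of this correlation was -0.13, and 11 members reached 0.85. The points share their libraries and their totals, so this is a description. Whether these features share sequence with mitochondrial transcripts was not tested.

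The other 4 of the 10 followed other tissues. LINC59933 (chr29:44090913-44094159, minus strand) was the most even of the 10, with a mean of 29026 CPM. It lay between 31700 and 89948 CPM in the adrenal medulla (median 39891) and between 9279 and 12658 CPM in the liver (median 10875), its lowest tissue. The adrenal medulla, adrenal cortex (50472 ± 8370 CPM) and thyroid (46506 ± 7679 CPM) did not differ beyond their spread, and all of their libraries lay above all 6 of the liver.

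LINC33210 (chr13:64754860-64758682) lies between CNBD2 and EPB41L1, the neighbours that flank the genome stability lncRNA NORAD in human. It was highest in the frontal neocortex, with 6076, 6797 and 7318 CPM in the lowest, median and highest library, and lowest in the heart, with 871, 968 and 1367 CPM. LINC63741 and LINC63768, both on unplaced sequences, varied widely between goats. LINC63741 was at 14028 ± 6865 CPM in the duodenum and at 5205 to 41078 CPM in the spleen, where the median was 7294. LINC63768 ran from 1761 to 21630 CPM in the mandibular lymph node around a median of 4793. The means of the 4 highest tissues of each of this pair differed by less than the spread between goats.

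**Figure D2:**
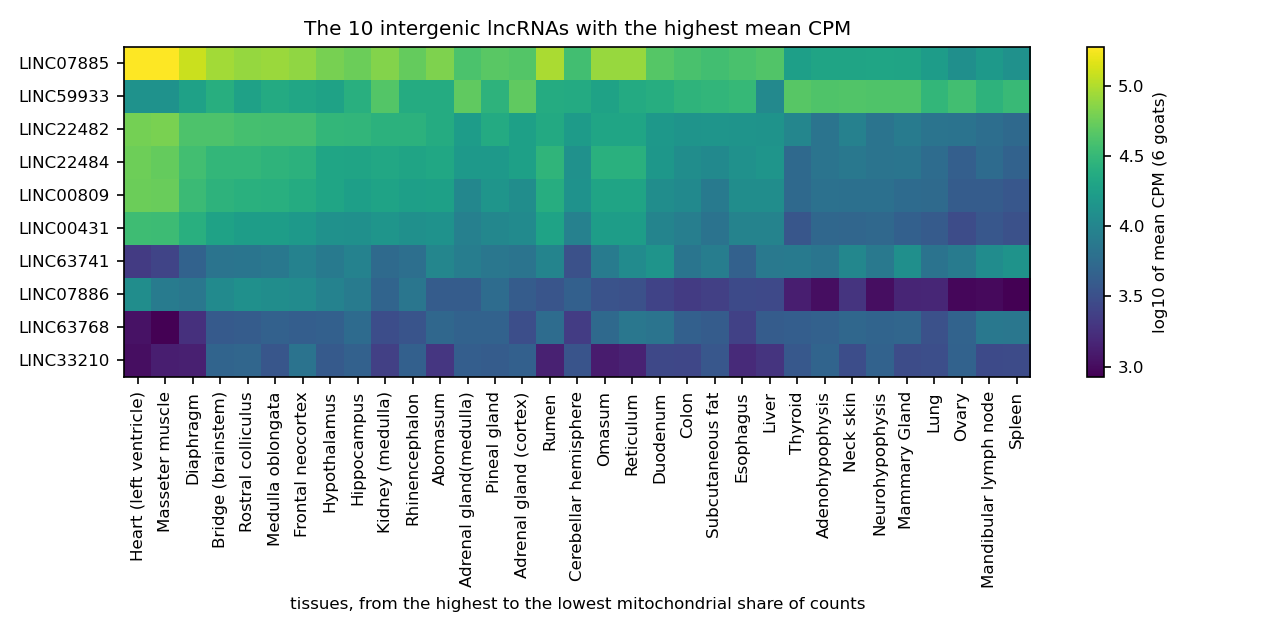
Mean CPM over 6 goats (colour, log10 scale) of the 10 intergenic lncRNAs with the highest mean CPM (rows) in 33 tissues (columns), ordered from the highest to the lowest share of mitochondrial counts. LINC07885, LINC22482, LINC22484, LINC00809, LINC00431 and LINC07886 fall from left to right, while LINC59933, LINC63741, LINC63768 and LINC33210 do not.

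The spread over tissues was summarised by tau, which is 0 for a feature with the same level in every tissue and 1 for a feature seen in a single tissue, computed on log2(CPM + 1). Intergenic lncRNAs had a median tau of 0.348 (quartiles 0.202 and 0.703), against 0.474 for 17437 protein-coding genes, 0.425 for intronic, 0.279 for antisense and 0.275 for overlapping lncRNAs. Computed goat by goat, the intergenic median was 0.160 ± 0.0136 below the coding median (tau difference -0.160, lower in 6 of 6 goats) and 0.0900 ± 0.00681 above the antisense median (higher in 6 of 6). Both differences had an exact sign-flip p of 0.03125, two-sided, the smallest that 6 goats can give, and the same p after Benjamini-Hochberg adjustment over 4 class comparisons. Their sizes depended on the scale: with tau on CPM without a log they were -0.0422 and 0.0256, and among features that reached 10 CPM in some tissue they were -0.138 and 0.0240, each in the same direction with the same p. The class had many members at both ends, with 479 (19.3%) at a tau of at least 0.8 and 604 (24.4%) below 0.2.

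The sign of the difference from coding genes depended on the level. For features whose highest tissue mean lay between 2 and 5 CPM, the intergenic lncRNAs had a tau 0.143 ± 0.00829 above that of the coding genes, in 6 of 6 goats (medians over tissue means 0.777 and 0.570, n = 279 and 3461). For those at 100 CPM or more they lay lower, with a difference of -0.296 ± 0.0141 in 6 of 6 goats (0.242 and 0.523, n = 508 and 733). The turn came between the 5 to 10 CPM range, where the difference was 0.128 ± 0.0188, and the 10 to 20 CPM range, where it was -0.0315 ± 0.00932. Each of the 7 ranges had an exact sign-flip p of 0.03125, adjusted over the 7.

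**Figure D3:**
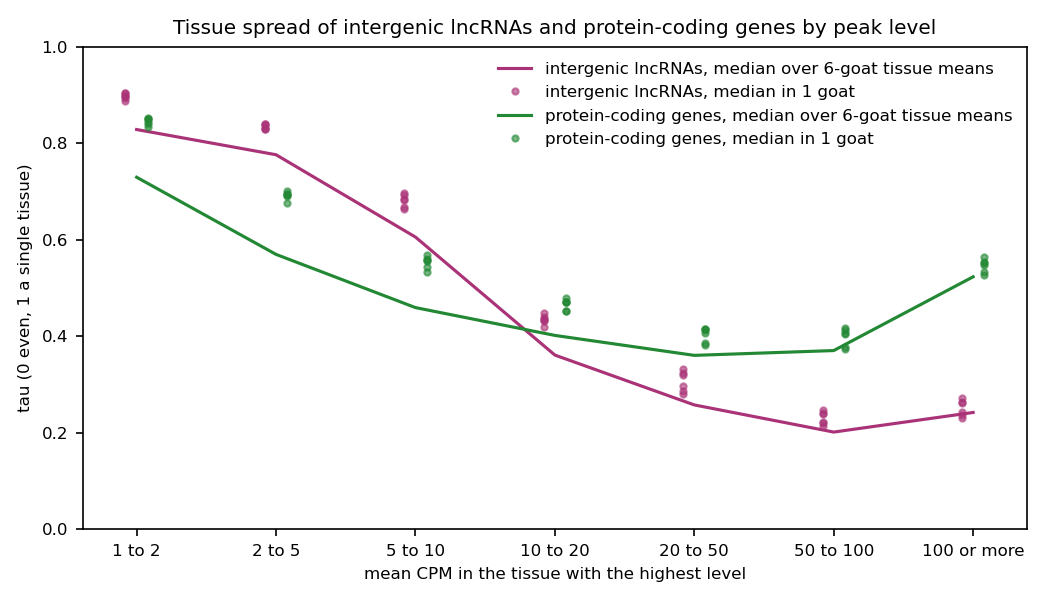
Median tau (y axis) of intergenic lncRNAs and protein-coding genes in 7 ranges of the mean CPM in their highest tissue (x axis): lines are medians over tissue means of all goats, points are medians within 1 goat. The intergenic lncRNAs lie above the coding genes up to 10 CPM and below them from 10 CPM on, in each of 6 goats.

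Level and spread differed between members of different length. The members with the shortest exons (200 to 557 bases) had a median peak of 6.50 CPM and a median tau of 0.504, and those with the longest (3370 to 54338 bases) had 119 CPM and 0.234. Between them, members of 558 to 1366 bases had 13.7 CPM and the highest median tau, 0.533, and those of 1367 to 3366 bases had 38.0 CPM and 0.315. Per kilobase of exon the medians over tissues were closer, from 3.34 CPM at 558 to 1366 exon bases to 6.78 in the longest, and across 2478 members the rank correlation of exon bases with tau was -0.35. The longest record, LINC59064, spans 2445173 bases of chromosome 29 beside TENM4, a teneurin of neuronal wiring. It was highest in the neurohypophysis at 583 ± 107 CPM and lowest in the diaphragm at 42.0 ± 12 CPM. The shortest record at 1 CPM, LINC40623 (239 bases, chromosome 17), reached 1.76 ± 0.758 CPM in the lung.

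The evenest members at 10 CPM or more, besides LINC59933, were LINC26057, LINC27735, LINC15944 and LINC46933, with tau of 0.0576 to 0.0681. LINC26057 (chr10:56522434-56532514), a single exon of 10081 bases between CA12 and USP3, stood at 200 to 222 CPM in the medulla oblongata and 38.7 to 83.6 CPM in the masseter, its lowest tissue. LINC15944 starts or ends 1066 bases from RBPJ, the DNA-binding factor of Notch signalling, and ran from 46.2 ± 12.2 CPM in the masseter to 167 ± 32.8 CPM in the adenohypophysis. The highest and lowest tissues of these 2 did not overlap.

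Tissue-enriched features were those with at least 1 CPM in a tissue, at least 5 times the mean of the next tissue, and all 6 libraries above every library of the other tissues. This held for 99 intergenic lncRNAs, 3.99% of the 2480 at 1 CPM, while it held for 482 (1.54%) of all 31305 such features and for 277 (1.59%) of the coding genes. Applied within single goats with the level and fold alone, the share was 7.85% ± 0.596 for intergenic lncRNAs and 3.75% ± 0.448 for coding genes, higher in 6 of 6 goats (exact sign-flip p = 0.03125, the smallest possible). The 99 fell in 9 tissues, with 66 in the mammary gland, 14 in the liver, 6 in the thyroid, 3 each in the spleen and subcutaneous fat, 2 each in the heart, kidney medulla and masseter, and 1 in the lung. Among the 2055 members on chromosomes that reached 1 CPM, 28 (1.36%) were enriched.

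All 66 mammary-enriched features of any class were intergenic lncRNAs, and all 66 lay on unplaced sequences, 65 in number. The rule asked that dry glands too lie above every other library, which kept out genes near 0 in them. Among those kept out were CSN2, CSN3 and LALBA, milk protein genes that summed to at most 6.25 CPM in each dry gland. That no coding gene met the rule is not read as a trait of the class. The summed level of the 66 was 21718 ± 6358 CPM in the mammary gland, 2.17% of counts. The lactating goats 2, 3 and 6 had 31775, 16215 and 13635 CPM and the dry goats 54, 64 and 73 had 22095, 22926 and 23659 CPM. The lactating and dry goats overlapped, and goat 2 was highest. In the next tissue, neck skin, the sum lay between 203 and 2084 CPM (median 1342), below every mammary library.

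Single members of this set peaked between 7.68 and 1908 CPM (median 139), and 8 exceeded 1000 CPM. LINC65185, the highest, lay between 1166 and 3350 CPM in the mammary gland (median 1739) and at 96.2 ± 77.1 CPM in neck skin. LINC65666 lay between 1085 and 2535 CPM (median 1836), with 86.3 ± 66.5 CPM in neck skin. The next tissue after the mammary gland was neck skin for 41 of the 66, subcutaneous fat for 10 and the ovary for 6. The ovary of goat 73 stood apart, with a sum of 3746 CPM against 38.2 to 295 CPM in the other 5 ovaries.

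Between lactation and dry none of these 66 was called in the mammary gland by edgeR (6 had an unadjusted p under 0.05, and 1.05% of all features were called there), their log2 fold changes had a median of -0.10, and 23 were above 0. The rule asked for a high level in all 6 mammary libraries and so kept out members near 0 in one state, and nothing on stability between states follows from these counts. Marker sums of epithelium, milk proteins and endothelium separated the states in the same libraries. The 5 epithelial markers KRT8, KRT18, KRT19, EPCAM and ELF5 summed to 216 to 267 CPM in lactation and 17.8 to 133 CPM in dry glands. The 3 milk protein genes CSN2, CSN3 and LALBA summed to at least 15137 CPM in each lactating gland and to at most 6.25 CPM in each dry one. The endothelial markers PECAM1 and VWF summed to 39.7 to 77.8 CPM in lactation and 9.21 to 37.3 CPM in dry glands. Of all members with 1 CPM on unplaced sequences, 27.8% peaked in the mammary gland, against 4.04% of those on chromosomes. In bulk tissue, fewer cells of a type and less RNA per cell cannot be told apart.

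**Figure D4:**
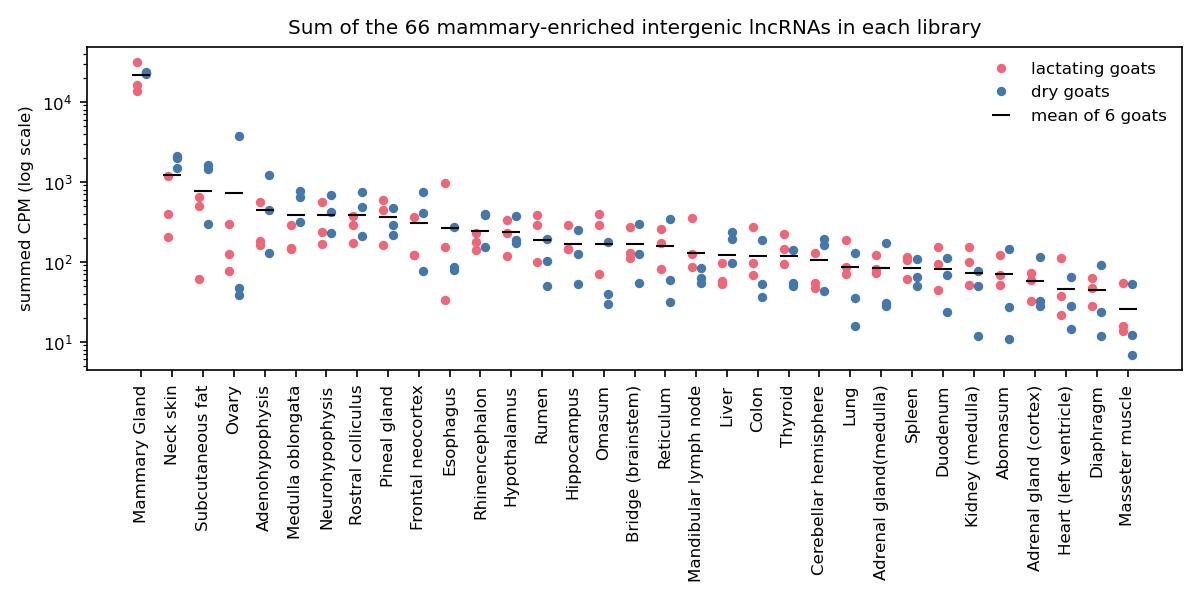
Summed CPM (y axis, log scale) of the 66 mammary-enriched intergenic lncRNAs in each library, by tissue (x axis), with lactating goats in red, dry goats in blue and means of 6 goats as black bars. The 6 mammary libraries lie between 13635 and 31775 CPM and the highest other library, the ovary of goat 73, at 3746 CPM.

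Outside the mammary gland, LINC40136 (chr17:11184723-11188814, between the T-box factor gene TBX3 and MED13L) led the liver. Its liver libraries lay at 529, 886 and 1190 CPM (lowest, median, highest), and the next tissue, the pineal gland, at 25.4 ± 13.2 CPM. LINC62784 (unplaced) was the most restricted by fold, with 173 to 363 CPM in the masseter (median 208) and 0.663 ± 0.817 CPM in the adrenal medulla next. In the diaphragm, also a skeletal muscle, it stood at 0.402 ± 0.670 CPM. LINC57576 (chr27:33035497-33096210) marked the heart at 45.0 to 112 CPM (median 75.8), with 3.83 ± 2.28 CPM in the neurohypophysis next.

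In subcutaneous fat, LINC62346 on the X chromosome (chrX:33527960-33552771) lay at 847 to 2470 CPM (median 1453), with 289 ± 272 CPM in neck skin. LINC01500 (chr1:80083169-80086195) lies 6550 bases from ADIPOQ, which encodes the fat cell hormone adiponectin. It lay at 214 to 839 CPM in fat (median 471) and 63.1 ± 76.1 CPM in neck skin. Its rank correlation with ADIPOQ over 33 tissues was 0.10. Every fat library of these 2 records lay above every library of the other tissues.

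In the spleen, LINC31871 (chr13:19123760-19171397), 5715 bases from NRP1, a coreceptor for semaphorins and VEGF, lay at 195 to 642 CPM (median 470), with the liver next at 77.4 ± 28.4 CPM. LINC49779 (chr22:2181276-2199146), whose nearest gene on one side is EOMES, a T-box factor of cytotoxic lymphocytes, lay at 35.6 to 75.8 CPM, with the lymph node next at 10.1 ± 10.9 CPM. The kidney medulla had LINC35462 (chr14:92299151-92304024) at 22.5 to 43.1 CPM, and the thyroid, the next tissue, had 0.340 ± 0.441 CPM. The thyroid had LINC17867 (chr7:35658891-35690696) at 43.6 to 187 CPM and 11.97 ± 2.73 CPM in the neurohypophysis. These records have in common only that their 6 libraries did not overlap any other tissue, which is how they were chosen.

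Levels of intergenic lncRNAs and of their nearest coding gene were weakly related over the 33 tissues. The median rank correlation was 0.33 for 53 pairs within 5000 bases, 0.25 for 227 pairs at 5000 to 10000 bases and 0.27 for 139 pairs beyond 500000 bases. Between neighbouring intergenic lncRNAs it was 0.59 for 431 members within 5000 bases of one another and 0.34 for 563 beyond 500000 bases. These are descriptions over tissues that share libraries, and neighbours on 1 strand may be pieces of 1 transcript, which was not tested.

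The highest correlation with a coding neighbour was that of LINC11348 (chr4:89110243-89216562), 0.97 with IL6, the inflammatory cytokine gene that it overlaps. No source used here says whether strand was used in counting, so the counts of these 2 cannot be told apart with certainty. LINC11348 was highest in the hypothalamus at 255 to 332 CPM and lowest in the masseter at 25.9 to 45.0 CPM. LINC11029 (chr4:71058619-71060678), 15601 bases from the neuronal adhesion gene NRCAM, correlated with it at 0.89. LINC61401 (chrX:46572662-46575646), 9667 bases from PTCHD1, a gene of brain development, correlated at 0.88 and lay at 72.4 to 103 CPM in the cerebellar hemisphere, with no count in the diaphragm.

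Lactation state was compared within each tissue over 3 against 3 goats with edgeR at an adjusted p of 0.05. Counts of calls under other settings are of the members alone unless all features are named. In the mammary gland 25 of 1773 tested members were called (1.41%), 17 higher and 8 lower in lactation. Of all 18214 features 1.05% were called, 0.873% higher and 0.181% lower. The median log2 fold change was -0.18 for the members and 0.07 for all features. The 4 with the largest fold changes had no count in any dry gland. LINC17392 (chr7:4387228-4389732, nearest gene EFNA5) was at 36.3, 23.9 and 15.3 CPM in goats 2, 3 and 6 and at 0 in all dry goats, at least 121-fold higher (adjusted p = 0.0081). LINC32407 (chr13:41116275-41118207, nearest gene THBD) was at 9.41, 14.1 and 15.5 CPM and 0 in all dry goats, at least 62.6-fold higher (adjusted p = 0.0155). LINC51735 and LINC55985 were at 12.7 ± 10.5 and 11.5 ± 8.35 CPM, again with 0 in the dry glands.

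The 8 lower members included LINC65098 (unplaced), with 72.0, 179 and 89.5 CPM in the lactating and 372, 353 and 428 CPM in the dry goats (log2 fold change -1.71 ± 0.27 SE, adjusted p = 0.0281). LINC32203 (chr13:34296455-34304149) had 35.8 ± 11.1 against 129 ± 27.1 CPM (adjusted p = 0.0390). LINC64648 and LINC26213 complete the 4 lowest. The goats of the 2 states do not overlap for any of these 8 because the rule that chose them asked for it. For each of the 8 there was a goat whose removal ended the call, and the count of 25 became 5, 4, 7 and 3 without goats 2, 6, 64 and 73. Without goat 54, the dry goat whose epithelial markers were lowest, 24 were called. By protein-coding genes the mammary library of goat 54 was closest to the ovary, and by the intergenic lncRNAs to its own tissue. DESeq2 called 84.

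In the liver 46 of 1641 members were called (2.80%), 9 higher and 37 lower, against 243 of all 17027 features (1.43%, with 0.558% higher and 0.869% lower). LINC02683 (chr1:139354053-139358589), 6100 bases from B3GALT5, a glycosyltransferase gene, was at 66.4, 143 and 72.8 CPM in lactating and 5.39, 8.01 and 10.1 CPM in dry livers (log2 fold change 3.54 ± 0.35, adjusted p = 9.96e-04). LINC46751 (chr20:4279244-4286596), near SH3PXD2B, was at 19.7, 222 and 66.6 CPM against 3.48, 4.34 and 4.19 CPM (4.60 ± 0.71, adjusted p = 0.0111). LINC64546 was at 0 in all lactating livers and at 20.9, 23.9 and 18.0 CPM in dry ones, at least 93.0-fold lower (adjusted p = 9.17e-04).

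LINC63970, also unplaced, was at 0, 0.231 and 0 CPM in lactating and 17.4, 29.1 and 37.01 CPM in dry livers (-8.09 ± 0.70, adjusted p = 7.99e-04). Of the 37 lower members 17 lay on unplaced sequences, which hold 14.3% of the members tested. LINC02683, LINC64546, LINC63970 and LINC64271 kept their call without any single goat, while LINC46751 lost it without goat 54, 64 or 73 (highest adjusted p = 0.101). The count was 10, 24, 17 and 25 without goats 54, 6, 64 and 73. The 3 hepatocyte markers ALB, APOA1 and TTR summed to 4180 to 18678 CPM in lactating and 20770 to 25314 CPM in dry livers, and their part in these differences was not tested.

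In the adenohypophysis 46 of 1707 members were called (2.69%), 12 higher and 34 lower, against 516 of 18239 features (2.83%, with 1.55% higher and 1.28% lower). With library totals as the only scaling, 79 were called, 6 higher and 73 lower, and the median of all features moved from -0.01 to -0.22. LINC64450 (unplaced) was at 8.91, 40.8 and 59.7 CPM in lactating and 811, 6453 and 192.004 CPM in dry goats (-5.83 ± 0.99, adjusted p = 0.00890), and goat 64 was the highest dry goat also for LINC63970, LINC65001 and LINC65207. LINC58568 (chr28:32959125-32965962, nearest gene CHRM3) was at 176, 134 and 163 CPM against 77.5, 83.6 and 77.4 CPM (1.20 ± 0.16, adjusted p = 0.00265) and held its call without any single goat. Of the 34 lower members 23 were unplaced. Without goat 2 the count was 12, and LINC64450, LINC63970, LINC65001 and LINC65207 all lost their call (adjusted p of LINC64450 0.0526). The pituitary markers GH1 and POMC summed to 778 to 2142 CPM in lactating and 244 to 550 CPM in dry libraries, and the endothelial markers to 4.38 to 5.998 against 7.62 to 18.6 CPM. Their part was not tested.

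In subcutaneous fat edgeR called none of 1684 members and none of 18245 features (0%). An unadjusted p under 0.05 was found for 135 of the members and for 1327 of all features. DESeq2 called 21 of the members, edgeR with no filter on low counts called 68, and edgeR without goat 6 called 3. The counts over all features in these settings are not given here. With library totals the median of all features moved to 0.39 and none was called.

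The most calls came from 3 tissues that were added after the counts of all tissues were known. In the kidney medulla 224 of 1660 members were called (13.5%; all features 15.1%), 76 higher and 148 lower in lactation (all features 6.02% and 9.11%). With library totals the split became 219 higher and 104 lower, with the median of all features at 0.38. LINC65013 (unplaced) was at 1.39, 2.45 and 0 CPM in lactating and 567, 497 and 700 CPM in dry kidneys (-9.15 ± 0.54, adjusted p = 2.36e-06), while in the liver it lay between 763 and 2246 CPM in all 6 goats. The hepatocyte markers summed to 1.16 to 3.57 CPM in the lactating and 5.06 to 13.2 CPM in the dry kidneys, and so also separated the states. In the liver libraries the same markers summed to between 4180 and 25314 CPM. Their part in the difference of LINC65013 was not tested. LINC40588 (chr17:30594278-30600993), near the relaxin receptor gene RXFP1, was at 77.1, 77.2 and 22.2 CPM against 0.787, 1.81 and 1.36 CPM (5.04 ± 0.53, adjusted p = 7.49e-05).

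The kidney libraries also differed by state in their segment markers. SLC12A1, UMOD and AQP2, which mark the thick ascending limb and the collecting duct, summed to 310 to 1214 CPM in lactating and 91.7 to 119 CPM in dry kidneys. The endothelial markers summed to 36.4 to 57.8 against 9.10 to 22.1 CPM and the 5 epithelial markers to 100.3 to 129 against 30.9 to 34.5 CPM. The part of these in the calls was not tested. LINC20908 and LINC22867 had no count in the lactating kidneys and 22.0 ± 12.8 and 11.5 ± 7.26 CPM in the dry ones, at least 102-fold and 53.4-fold lower. The 224 calls ranged from 159 to 218 when single goats were left out.

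In the ovary 170 of 1678 members were called (10.1%; all features 11.7%), 58 higher and 112 lower (all features 5.71% and 5.97%), and with library totals 157 higher and 72 lower (median of all features 0.32). The count rested on single goats: without goat 73, whose ovary carried the mammary-enriched set, it was 462, and without goats 2, 3, 6, 54 and 64 it was 45, 44, 46, 77 and 67. LINC20637 (chr8:7582707-7585465), 22272 bases from GATA4, a transcription factor of granulosa cells, was at 78.7, 87.5 and 82.4 CPM against 5.43, 7.47 and 1.26 CPM (3.80 ± 0.47, adjusted p = 0.00321) and kept its call without any single goat. The 5 epithelial markers summed to 2.37 to 16.8 CPM in lactating and 30.2 to 147 CPM in dry ovaries, the endothelial ones to 23.5 to 34.1 against 4.32 to 14.8 CPM, and the 3 cardiac muscle markers measured to 3.32 to 8.96 against 26.6 to 34.0 CPM, of which MYL2 and TNNI3 were each below 1 CPM in every ovary and RYR2 made up the rest. Their part in the calls was not tested.

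For the libraries labelled pineal gland, 171 of 1770 members were called (9.66%; all features 7.97%), 92 higher and 79 lower (all features 3.1% and 4.86%), with 81 and 154 under library totals (median of all features -0.31). LINC01354 (chr1:73252091-73275578, nearest gene HES1, a repressor in Notch signalling) was at 19.2, 15.6 and 26.9 CPM in lactating and 1667, 1585 and 1609 CPM in dry libraries (-5.997 ± 0.31, adjusted p = 8.87e-05). It moved with TPH1 in these 6 libraries, which for the 3 lactating ones go against their label. ALB, APOA1 and TTR, listed here as hepatocyte markers, summed to between 0.210 and 1429.5 CPM in the lactating libraries and 11.1 to 13.8 CPM in the dry ones. The highest sum rested mostly on TTR, at 1369 CPM in goat 3. Whether this TTR came from liver cells was not tested. Left-out goats moved the count to between 51 and 339, with 83, 339, 53, 64 and 51 without goats 2, 3, 54, 64 and 73.

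Over all 33 tissues there were 997 calls of a member in a tissue, 1.83% of 54442 tests (all features 1.9%), 397 higher and 600 lower in lactation (all features 0.925% and 0.976%), and 56.7% of them came from the kidney, ovary and pineal libraries. In 25 tissues at least 1 member was called. Of 657 members called somewhere, 487 were called in 1 tissue, 66 in 3 or more and 4 in 10 or more. Because all tissues come from the same 6 animals, repeated calls are not independent. In the 22 tissues with no library closest to another tissue there were 774 calls of members. The count over all features in these 22 is not given here. Counts by number of tissues are not given here for all features, so they are not read as traits of the class.

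LINC26213 (chr10:61688906-61691370), which lies 537342 bases from its nearest coding gene, MDGA2, was called in 22 tissues and was lower in lactation in each. The 3 lactating goats lay below the 3 dry goats in all 33 tissues. Among 31305 features at 1 CPM in some tissue it was the single one with such a separation in either direction. In the bridge of the brainstem it was at 22.7, 31.7 and 26.6 CPM in lactating and 309, 186 and 300 CPM in dry goats (-3.30 ± 0.20, adjusted p = 1.91e-07). In the frontal neocortex it was at 42.9, 13.0 and 25.6 against 330, 206 and 344 CPM, which was not called (-3.24 ± 0.43, adjusted p = 0.555).

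In the reticulum, a forestomach, the difference of LINC26213 was smallest, with 24.1, 21.3 and 27.1 CPM against 57.7, 41.3 and 51.7 CPM (-1.22 ± 0.26, adjusted p = 0.129). Over the 32 tissues besides the mammary gland the goat means were 28.2, 29.5 and 32.2 CPM in lactating and 172, 98.8 and 149 CPM in dry goats. By limma on goat means this was -2.06 ± 0.15 (adjusted p = 1.45e-04), and no single goat decided it (highest adjusted p over 10 alternatives 0.00249). State and the individual goats cannot be told apart here: the goats of a state may share ancestry or alleles, on which the labels give nothing.

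**Figure D5:**
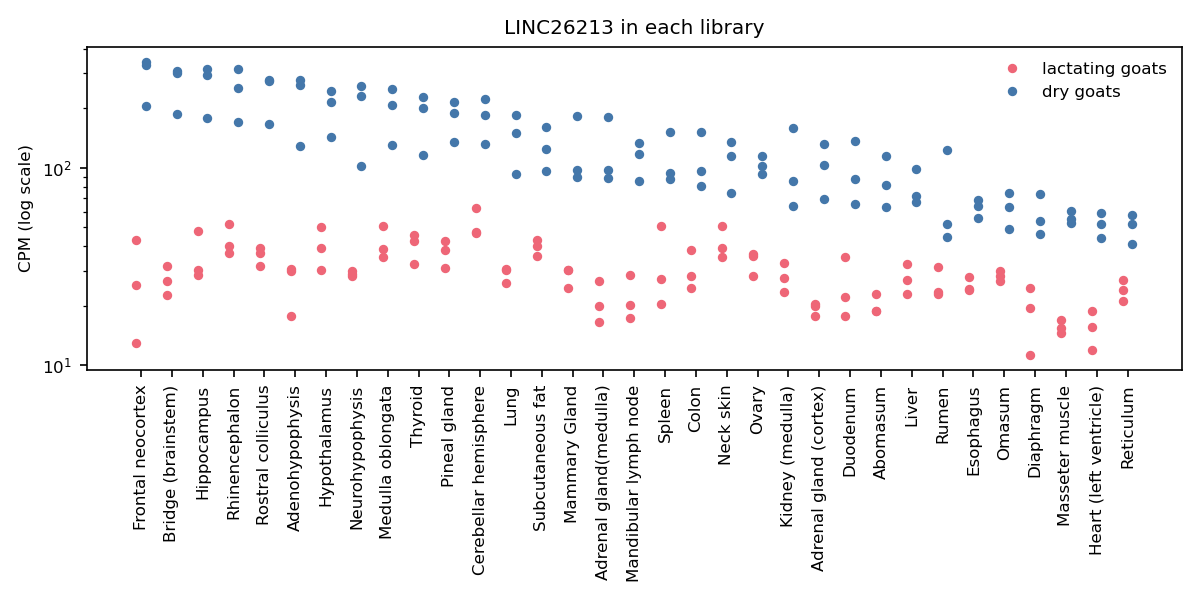
CPM of LINC26213 (y axis, log scale) in each library by tissue (x axis), with lactating goats in red and dry goats in blue, ordered by the dry mean. In all 33 tissues the 3 red points lie below the 3 blue ones, and the dry goats range from 41.3 CPM in the reticulum to 344 CPM in the frontal neocortex.

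Other members recurred with less regularity. LINC58073 (chromosome 28) was called in 13 tissues, 11 higher and 2 lower in lactation. In the ovary it had 240 ± 17.6 against 51.7 ± 1.36 CPM (1.87 ± 0.16, adjusted p = 7.53e-04), and in the cerebellar hemisphere 184 ± 9.62 against 304 ± 25.3 CPM (-0.61 ± 0.11, adjusted p = 0.0112). LINC64450 was called in 12 tissues and LINC64525 in 11, lower in lactation in each, with body-wide goat means of 57.4, 109 and 54.7 against 403, 765 and 186 CPM for LINC64450. In all, 62 members were called in both directions in different tissues, a count given here without its counterpart over all features.

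Averaged over the 32 tissues besides the mammary gland, limma called 340 of 2434 members (14.0%), 272 higher and 68 lower, against 3997 of 31190 features (12.8%, with 10.2% higher and 2.57% lower). With TMM scaling over all libraries 166 members were called, 67 higher and 99 lower. Of all 31190 features 3247 were then called, 1438 higher and 1809 lower. The side on which most calls fell thus depended on the scaling for all features, not for the members alone. Of the 68 lower members 40 lay on unplaced sequences, which hold 16.3% of those tested. LINC38567 (chr16:40808284-40822405) had goat means of 14.4, 14.5 and 14.7 CPM in lactating and 9.61, 10.6 and 10.2 CPM in dry goats (1.10 ± 0.09, adjusted p = 2.14e-04). LINC34909 (chr14:62963408-62976296), 41379 bases from CEBPD, a transcription factor gene of the acute-phase response, had 47.8, 40.3 and 45.8 against 24.0, 29.1 and 32.2 CPM (0.90 ± 0.11, adjusted p = 0.00117). All 8 members named body-wide kept their call and direction in 10 alternatives each. They were chosen as called members with the largest fold changes and no overlap between goats, which favours keeping the call. The count of called members was 191, 188, 121 and 136 without goats 3, 54, 64 and 73 (2298, 2244, 1460 and 1589 over all features).

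Pairs of tissues of like or contrasting build were compared over 6 against 6 libraries. The same 6 goats gave both tissues, and the main fit did not use this pairing. An alternative fit took the goat as a block. In the heart against the diaphragm 13.7% of 1447 members were called (all features 16.5%), 129 higher in the heart and 69 lower (all features 8.27% and 8.18%). LINC57576 was at 45.0 to 112 CPM in the heart and 0 to 2.01 CPM in the diaphragm (7.92 ± 0.58, adjusted p = 1.65e-08). LINC25472 (chr10:30360018-30363911) was at 0 to 0.335 CPM in the heart and 59.9 to 105 CPM in the diaphragm (-9.69 ± 0.49, adjusted p = 2.14e-10). Neither record overlapped between the 2 muscles.

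In the liver against the kidney medulla 342 of 1613 members were called (21.2%; all features 23.3%), 195 higher in the liver and 147 lower (all features 13% and 10.3%). LINC35462 had no count in the liver and 22.5 to 43.1 CPM in the kidney, at least 291-fold lower in the liver (adjusted p = 3.21e-07). LINC41213 (chr18:1174982-1310737) was at 6.82 to 153 CPM in the liver (median 52.2) and at most 0.238 CPM in the kidney (9.48 ± 0.88, adjusted p = 1.37e-06).

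In the cerebellar hemisphere against the frontal neocortex 297 of 1704 members were called (17.4%; all features 21.5%), 103 higher in the cerebellum and 194 lower (all features 10.3% and 11.2%). LINC30247 (chr12:9532987-9561971), 10287 bases from ZIC2, a patterning factor gene of the cerebellum, was at 72.1 to 108 CPM in the cerebellum and 3.63 to 14.4 CPM in the cortex (2.71 ± 0.24, adjusted p = 4.23e-07). LINC35228 (chr14:79893324-79895446), whose nearest gene is the neuronal activity gene ARC, had no count in the cerebellum and 7.15 to 25.7 CPM in the cortex, at least 129-fold lower in the cerebellum (adjusted p = 1.11e-06).

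In the mandibular lymph node against the spleen 44 of 1616 members were called (2.72%; all features 3.21%), 6 higher and 38 lower in the node (all features 0.974% and 2.24%). With the goat as a block 75 were called, 13 higher and 62 lower, and without goat 64 there were 24. LINC31871 was at 23.8 to 47.6 CPM in the node and 195 to 642 CPM in the spleen (-3.53 ± 0.25, adjusted p = 2.04e-07), and LINC62346 was at 63.8 to 122 CPM in the node and 2.19 to 8.98 CPM in the spleen (4.15 ± 0.30, adjusted p = 2.62e-07). LINC62346 had its peak in subcutaneous fat. Of the adipocyte markers, ADIPOQ stood at 0 to 7.09 CPM in the node and at 0 to 0.650 CPM in the spleen, PLIN1 at 2.22 to 8.77 and 2.84 to 12.6 CPM, and LEP at 0 in every node. Their part in the difference was not tested. All 22 members named in the 4 tissue pairs kept their call under every alternative run, leaving out each goat included. They were chosen from these same libraries for large fold changes without overlap, so nothing on stability follows.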

How the data were processed

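Total RNA was measured by sequencing of strand-specific libraries, per the labels' protocols. STAR, StringTie and edgeR are listed, without versions, in the submitters' processing notes. The genome build and the use of strand in counting are not given in the sources used here. The authors deposited expected counts per feature for every library, of which 36.9% of values above 0 have a fractional part. They were rounded to whole numbers for tests. The authors also deposited natural log offsets, used as an alternative scaling, and a tau per feature, a fraction from 0 to 1. The deposited CPM table was not used.

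CPM here is the count divided by the library total in M. Library totals ran from 1.31 to 8.97 M (median 4.63 M), and the floor of 3 counts stood at 0.335 to 2.29 CPM. Floors and fold bounds cover counting error only, and fold bounds use 3 counts over the group at 0. Each tissue was fitted with edgeR 4.0.16 in R 4.3.3 (quasi-likelihood, TMM, filterByExpr with a minimum count of 10) over all features, with Benjamini-Hochberg adjustment at 0.05, and the SE of a log2 fold change was taken as its size over the root of F. The body-wide difference used limma 3.58.1 (lmFit, then eBayes with trend) on log2 CPM averaged per goat over the 32 tissues besides the mammary gland, with a prior count of 2. DESeq2 1.42.0, DESeq2's size factors, library totals, the deposited offsets, no filter and leaving out each goat were alternatives. Levels, tau (log2 of CPM + 1), exact sign-flip and exact permutation tests used Python 3.11.15, numpy 2.4.6, pandas 2.3.3 and scipy 1.17.1, and figures matplotlib 3.10.9. The fitting code was tested on simulated data.

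Replicates are separate goats. The same 6 goats gave every tissue, per the labels, which pairs libraries between tissues but not between states. Sequences were given chromosome numbers through the named host genes of antisense, overlapping and intronic transcripts (at least 5 hosts, 95% in accord). A sequence that missed this rule is called unplaced. As a check, 2288 of 2317 antisense records (98.7%) overlapped their host in the RefSeq ARS1.2 gene table, from which neighbours were taken.

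Genes were named by rule: the 10 highest by mean CPM, the 2 highest enriched in each tissue, the 5 with the lowest tau, in each state comparison the 4 highest and 4 lowest by fold change among called members without overlap between goats, in each tissue pair the 3 highest and 3 lowest of such members at 10 CPM or more, the 5 most correlated with their nearest coding gene, and the 3 longest and 3 shortest. The recurrent members, the kidney, ovary and pineal comparisons, the offsets and the removal of libraries closest to another tissue were chosen after seeing the data. The members and lists were chosen with earlier results of these data known. The neighbouring gene of some members is not reported here.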

Additional observations from a re-analysis of the deposited data

Results flagged for a closer look

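In 69 groups of 6 libraries, 8 held a library whose gap to its neighbour exceeded 0.625 of the group's range, and chance gives about 1 in 20 groups. The share of counts in intergenic lncRNAs was apart in the frontal neocortex of goat 2 (37.8%, tissue median 30.0%), the liver of goat 6 (14.8%, median 18.6%), the mammary gland of goat 54 (25.5%, median 18.5%) and the spleen of goat 3 (20.3%, median 14.6%). LINC07885 was lowest in the heart of goat 3, at 143396 CPM against a median of 195746 CPM. LINC63768 was highest in the mandibular lymph node of goat 3, at 21630 CPM against 4793 CPM. LINC47912 reached 10.4 CPM in the lung of goat 73 (median 4.41 CPM), and LINC08092 reached 61.4 CPM in the masseter of goat 64 (median 16.4 CPM).

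For 7 named members all goats of one state lay on opposite sides in 2 tissues, and the difference between the tissues was not tested. Separation of the states within a tissue was common among all features tested. It held for 7484 of 18413 in the kidney, 7069 of 18083 in the ovary and 5986 of 18070 in the pineal libraries. In the liver it held for 3304 of 17027 and in the bridge for 2604 of 18575. The log2 fold change between lactation and dry was 2.16 in the pineal libraries and -1.41 in the kidney for LINC07885, 2.44 and -1.10 for LINC22482, 2.06 and -1.12 for LINC22484, and 1.77 and -1.12 for LINC00809. It was 1.92 in the pineal libraries and -0.97 in the ovary for LINC00431, and 2.26 and -1.35 for LINC58568. For LINC46751 it was 4.60 in the liver and -2.09 in the bridge. The lactating libraries labelled pineal gland were closest to brain tissues.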

How the results depend on the processing

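No named call changed direction in any alternative run. The named calls were those with the largest fold changes and no overlap between groups in these same libraries. That rule left little room for a change of direction, and nothing on stability follows. Intergenic minus coding tau ran from -0.163 to -0.155 without single goats, and intergenic minus antisense tau from 0.0879 to 0.0920; 5 goats cannot give a p below 0.0625. With the deposited tau the latter was 0.0817. Without a log the differences were -0.0422 and 0.0256, with a pseudocount of 0.1 they were -0.131 and 0.0557, and at 10 CPM or more -0.138 and 0.0240. The mean share of counts was 13.6% without the 3 highest members (highest tissue 19.98%, lowest 9.67%) and 13.0% without the 10 highest features (16.5% and 10.3%). By tissue means alone 233 members were enriched. The counts of calls that follow are of the members. Counts over all features are given here only for TMM, so changes between settings are not read as traits of the class. DESeq2 called 84 members in the mammary gland, 83 in the liver, 21 in fat, 80 in the adenohypophysis and 87 between node and spleen. Without a filter these counts were 83, 150, 68, 131 and 73, and 2667 over all 33 tissues. Library totals gave 79 in the adenohypophysis. Leaving out single goats gave 3 to 33 in the mammary gland, 10 to 43 in the liver, 0 to 3 in fat, 12 to 62 in the adenohypophysis, 44 to 462 in the ovary, 51 to 339 in the pineal libraries, 121 to 267 body-wide and 24 to 43 between node and spleen. TMM gave 166 body-wide (3247 over all features). With the goat as a block 75 were called between node and spleen. The block gave 304 for the brain pair, 253 for the muscles and 314 for liver and kidney. Each of these counts differed from that of the main fit, while the members named in these pairs kept their calls. Of 78 named calls 22, 11, 16, 14, 15 and 17 were lost without goats 2, 3, 6, 54, 64 and 73. Without the 14 libraries closest to another tissue, chosen after seeing the data, 129 members were enriched. Except where given above, the cause was not tested. Members near the floor of 0.335 to 2.29 CPM cannot be told from absent ones.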
